A study of Mus musculus with 3 samples.

Results

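The respiratory chain subunits encoded in the nucleus were compared across 3 RNA-seq libraries of isolated brain vessels. The members were all protein-coding genes whose symbol starts with Nduf (except Ndufa4l2), Uqcr or Atp5, or with Cox and a digit from 4 to 8, together with Sdha, Sdhb, Sdhc and Sdhd. This gave 91 of the 29917 genes named in the files. They comprised 36 genes of complex I, 4 of complex II, 8 of complex III, 19 of complex IV and 16 of complex V. The same letters also take in 7 assembly factors of complex I (Ndufaf genes) and Atp5s, a coupling factor associated with ATP synthase. Each gene is represented by the transcript row with the most counts over the 3 libraries.

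Vessels were purified from the brains of male mice aged 3 months, 3 mice being pooled for each library. The C57BL6 WT library and the C57BL6-BALB/c WT library come from wild-type mice of those backgrounds. The Cx30-/- library comes from mice deleted in every tissue for Gjb6, which encodes the astroglial gap junction protein connexin 30. The sample labels give the Cx30-/- mice a C57BL6 background, and the study's methods give them a mixed C57BL6 and Balbc background. Each group is a single library, so no spread between animals can be had, and each interval given here covers the sampling of reads only. The study describes the preparation as holding endothelial cells, smooth muscle cells and pericytes. Markers of other brain cells were also counted in it, as given below. In such bulk RNA, fewer cells of a type and less of an RNA per cell cannot be told apart.

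Mitochondria pass electrons from NADH through complex I, and from succinate through complex II, to ubiquinone, then through complex III and cytochrome c to complex IV, where oxygen is reduced to water. Complexes I, III and IV move protons out of the matrix, and complex V, the ATP synthase, makes ATP from their return. Most subunits are encoded in the nucleus, translated in the cytosol and imported, while a small core set is encoded by mitochondrial DNA. Brain endothelial cells and pericytes contain mitochondria, and barrier transport consumes ATP. The nuclear genes are known to be controlled in part by the transcription factors NRF1, GABP, YY1 and ERRα.

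The promoters of the members are shown first, since the genes are read here as a set. RefSeq promoter windows (GRCm38.p6, 250 bases before to 50 bases after a transcription start) were present for 74 of the 91 members, in 79 windows. Atp5f1 was matched through its newer symbol Atp5pb. Letters of the core of the NRF1 motif, GCGCNTGCG, searched on both strands, occurred in 32.9% of the members' windows and in 6.31% of all 32851 windows. The GABP letters CCGGAAG occurred in 22.8% against 8.86%, the YY1 letters AAGATGGC in 13.9% against 2.75%, and the ERRα letters TCAAGGTCA in 2.53% against 0.423%. At least 1 of the first 3 was found in 46 of the 79 windows (58.2%), beside 16.0% of all windows. A match of letters is not a measured binding site. The core of the NRF1 motif nearly reads the same on both strands, so that its matches can overlap by all but 1 base. The 150 bases before the start are given for Sdhd, Cox6a1 and Atp5j, which hold matches to more than 1 motif in the window, and for Cox5a, Ndufa7 and Cox7c, whose counts are described below and which hold none in these bases. Matches are in capitals on the strand of the gene, so that CTTCCGG is the GABP motif on the opposite strand.
Sdhd, chr9:50603850-50603999, minus strand: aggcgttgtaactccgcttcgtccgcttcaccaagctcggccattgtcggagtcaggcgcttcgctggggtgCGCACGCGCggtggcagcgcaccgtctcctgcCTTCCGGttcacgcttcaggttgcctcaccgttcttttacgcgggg
Cox6a1, chr5:115348959-115349108, minus strand: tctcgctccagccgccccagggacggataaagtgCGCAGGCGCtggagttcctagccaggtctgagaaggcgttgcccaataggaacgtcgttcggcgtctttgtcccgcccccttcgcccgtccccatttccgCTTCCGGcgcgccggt
Atp5j, chr16:84834977-84835126, minus strand: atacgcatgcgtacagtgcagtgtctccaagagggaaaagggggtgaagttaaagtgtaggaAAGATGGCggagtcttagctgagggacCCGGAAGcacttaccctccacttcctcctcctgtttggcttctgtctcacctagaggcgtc
Cox5a, chr9:57521082-57521231, plus strand: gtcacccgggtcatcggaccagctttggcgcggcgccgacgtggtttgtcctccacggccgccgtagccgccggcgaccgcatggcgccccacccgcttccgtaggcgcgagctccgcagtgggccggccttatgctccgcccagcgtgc
Ndufa7, chr17:33824422-33824571, plus strand: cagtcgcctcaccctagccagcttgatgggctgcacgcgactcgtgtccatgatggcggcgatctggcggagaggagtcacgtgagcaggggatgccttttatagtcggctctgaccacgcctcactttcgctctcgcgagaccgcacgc
Cox7c, chr13:86046796-86046945, minus strand: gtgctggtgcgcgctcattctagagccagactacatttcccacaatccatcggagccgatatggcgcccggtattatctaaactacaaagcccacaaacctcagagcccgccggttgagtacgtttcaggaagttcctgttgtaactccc

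Members with and without the NRF1 letters did not part in direction. In the comparison of the wild-type libraries the median log2 ratio was -0.23 over 23 members with the letters and -0.41 over 46 without them. For the GABP letters the medians were -0.42 over 17 members and -0.31 over 52.

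The Cx30-/- library was low in the deleted gene. Gjb6 had 2899 counts in C57BL6 WT, 2246 in C57BL6-BALB/c WT and 96 in Cx30-/-, a log2 ratio of -4.65 (95% interval -4.96 to -4.36) against C57BL6 WT. The libraries held 24830975, 21170766 and 20654144 counted reads in the same order, by the total that the deposited fractions imply. Endothelial markers such as Cldn5, the main claudin of the barrier, were abundant in all libraries, with 25826 normalized counts in the C57BL6 WT library, 12122 in C57BL6-BALB/c WT and 29047 in Cx30-/-.

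Of the 91 members, 83 reached 50 normalized counts in at least 1 library. The 8 others were Uqcrb, Cox6a2, Cox7a1, Cox7b2, Cox8b, Cox8c, Atp5g2 and Atp5l. Per kilobase of transcript, averaged over the libraries, Cox4i1 stood highest with 4449 normalized counts per kb, followed by Atp5b (4127), Atp5g3 (2785), Cox8a (2688) and Atp5a1 (2609). The most abundant members of the other complexes were Ndufa13 in complex I (1918), Sdha in complex II and Uqcrc1 in complex III. The summed normalized counts of complex I were 26953 in C57BL6 WT, 21988 in C57BL6-BALB/c WT and 26725 in Cx30-/-. Those of complex V were 25811, 20844 and 25446, and those of complex IV 10882, 8198 and 10890. In these sums the C57BL6-BALB/c WT library was lower than the other 2, which lay close together.

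**Figure D1:**
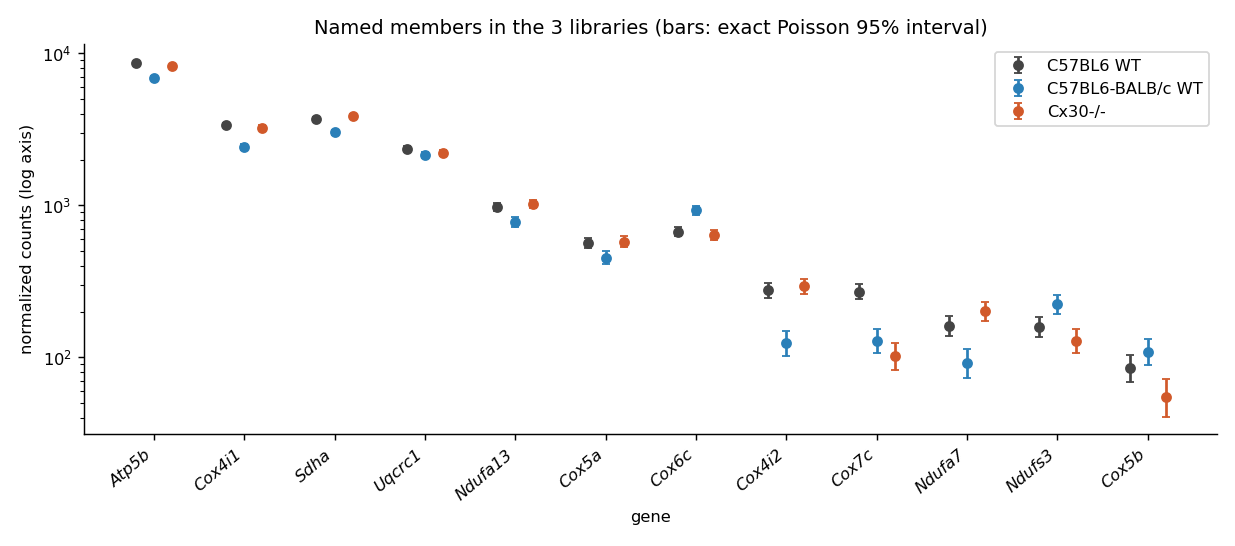
Normalized counts (log axis) of 12 named members in the 3 libraries, with the exact Poisson 95% interval of each count as bars. Cox4i2 lies at 276 in C57BL6 WT, 124 in C57BL6-BALB/c WT and 293 in Cx30-/-, whereas Cox7c lies at 270, 128 and 102.

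The question of the design is whether vessels change when Cx30 is absent, and the wild-type pair shows what differs between 2 libraries without the deletion. Between Cx30-/- and C57BL6 WT the 83 members had a median log2 ratio of -0.03, beside -0.0045 over the 14776 genes tested. Higher in Cx30-/- were 36 members and lower 47, while 49.3% of all genes were higher. No member was at least 2-fold higher (1.42% of all genes) and 1, Cox7c, was at least 2-fold lower (1.25%). At 1.5-fold, 0 members were higher (4.92% of all genes) and 2, Cox7c and Cox5b, were lower (5.86%).

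Against C57BL6-BALB/c WT the picture differed. The median of the 83 members was 0.31, with 65 higher and 18 lower in Cx30-/-, beside 50.3% higher among the 14891 genes tested. The members at least 2-fold higher were 2, Cox4i2 and Ndufa7 (3.96% of all genes), and none was 2-fold lower (4.73%). At 1.5-fold, 16 members were higher (14.1% of all genes) and 3 lower (14.8%).

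Between the wild-type libraries the members lay on the low side in C57BL6-BALB/c WT. Their median log2 ratio to C57BL6 WT was -0.33, with 14 higher and 69 lower, while 50% of the 14791 genes tested were higher. At least 2-fold lower were 2 members, Cox4i2 and Cox7c (2.02% of all genes), and none was 2-fold higher (1.41%). At 1.5-fold, 10 members were lower (8.04% of all genes) and 0 higher (7.34%). Each pair of comparisons shares a library, so these values are not independent: a low count in C57BL6-BALB/c WT enters both comparisons with that library. Counted by library, 64 of the 83 members (77.1%) were lowest in C57BL6-BALB/c WT, beside 41.2% of the 14979 genes that reached the minimum in at least 1 library. In C57BL6 WT 2 members (2.41%) were lowest, beside 21.9% of all genes, and in Cx30-/- 17 (20.5%), beside 36.9%.

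**Figure D2:**
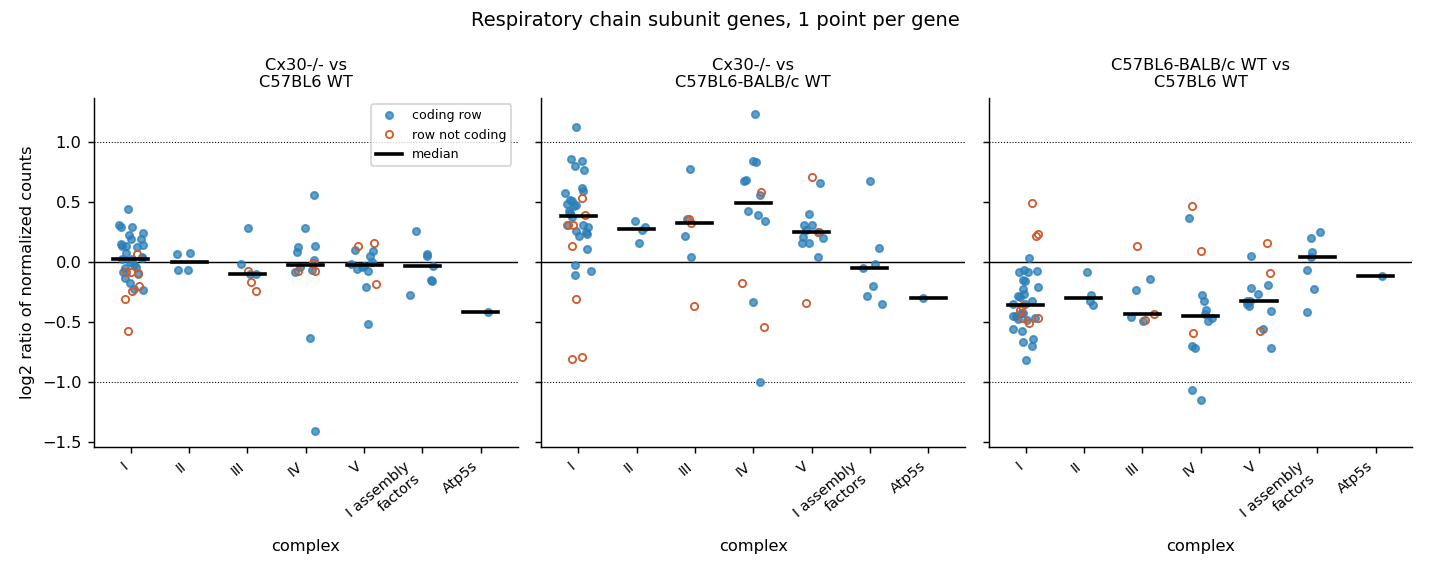
Log2 ratio of normalized counts (vertical axis) for each member with at least 50 normalized counts, by complex, in the 3 comparisons. Filled points are members read from a coding transcript row and open points the others, black bars are medians and dotted lines mark a 2-fold ratio. The medians of complexes I to V lie near 0 for Cx30-/- against C57BL6 WT, above 0 against C57BL6-BALB/c WT and below 0 between the wild-type libraries. The median of the complex I assembly factors stays near 0 in all 3, with single genes as far as 0.67 against C57BL6-BALB/c WT.

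The edgeR quasi-likelihood test, which sets Cx30-/- against both wild-type libraries as 1 group, called 0 of the 89 members it tested at an adjusted p under 0.05, and 9 of all 17576 genes (0.0512%). At an unadjusted p under 0.05 it gave 2 members, Cox7c and Atp5l, beside 8.69% of all genes. DESeq2 gave 0 members at either threshold, and over all genes 7 of the 14338 with an adjusted p, and 848 at an unadjusted p under 0.05. The lowest adjusted p of a member in edgeR was 0.541, for Cox7c. The error of this fit is the difference between the wild-type libraries, with 1 residual degree of freedom.

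Complex I takes electrons from NADH. All 36 members passed the minimum, and their medians were 0.03 for Cx30-/- against C57BL6 WT, 0.38 against C57BL6-BALB/c WT and -0.36 between the wild-type libraries. Of the 36, 30 were lowest in C57BL6-BALB/c WT and 6 in Cx30-/-. Ndufa13, an accessory subunit of the membrane arm and the most abundant per kb, had 971.0 normalized counts in the C57BL6 WT library, 775.5 in C57BL6-BALB/c WT and 1022 in Cx30-/-. Of the 50-base windows in its GENCODE transcript of 1251 bases, 28.5% also occur in other genes, while its counted row has 481 bases. Ndufv1, Ndufs1 and Ndufv2, core subunits with flavin or iron-sulfur centres, were picked after their values were seen and differed in spread. Other such subunits are not described here. Ndufv1, which binds NADH, had 2355, 2225 and 2193 normalized counts, and Ndufs1, the large iron-sulfur subunit, had 1627, 1666 and 1583. For Ndufv1 and Ndufs1 the log2 ratios of all 3 comparisons lay between -0.10 and 0.03, whereas Ndufv2, of the same arm, had 1094, 783.1 and 936.8 normalized counts and a wild-type ratio of -0.48 (-0.62 to -0.35).

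The accessory subunit Ndufa7 (GRCm38 chr17:33824572-33838317, plus strand) had 161.5 normalized counts in the C57BL6 WT library, 91.8 in C57BL6-BALB/c WT and 200.4 in Cx30-/-. Its C57BL6-BALB/c WT value was the low one, and the other libraries lay nearer to each other. The log2 ratio was 1.13 (95% interval 0.75 to 1.51) for Cx30-/- against C57BL6-BALB/c WT, -0.82 (-1.20 to -0.44) between the wild-type libraries, and 0.31 (0.01 to 0.61) for Cx30-/- against C57BL6 WT. Ndufa5, also accessory, was the complex I gene with the largest ratio of Cx30-/- to C57BL6 WT. It had 291.6, 263.6 and 396.5 normalized counts in C57BL6 WT, C57BL6-BALB/c WT and Cx30-/-, with a log2 ratio of 0.44 (0.23 to 0.66). At the other end, Ndufb4 had 59.4, 69.1 and 39.9, a ratio of -0.57 (-1.19 to 0.02) whose interval reaches 0.

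Ndufs3, a core subunit of the arm that hands electrons to ubiquinone, was 1 of 4 genes of the complex that were higher in C57BL6-BALB/c WT than in C57BL6 WT, the others being Ndufb4, Ndufs1 and Ndufab1. It had 158.9 normalized counts in the C57BL6 WT library, 223.6 in C57BL6-BALB/c WT and 128.0 in Cx30-/-, so that C57BL6-BALB/c WT was highest. Its row in the files is a processed transcript that GENCODE does not call coding. In the largest coding row of Ndufs3 the 3 values were 170.3, 181.5 and 152.1, and the ratio between the wild-type libraries was 0.09 in place of 0.49.

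Complex II, succinate dehydrogenase, is the only complex of the chain without a mitochondrially encoded subunit and is also an enzyme of the citric acid cycle. Its medians were 0.00, 0.28 and -0.30 in the order of comparisons used above. Sdha, the flavoprotein that oxidizes succinate, had 3669 normalized counts in the C57BL6 WT library, 3029 in C57BL6-BALB/c WT and 3848 in Cx30-/-. Sdhb, the iron-sulfur subunit, had 1108, 1046 and 1166. The membrane anchors were alike in pattern, with 1601, 1247 and 1525 for Sdhc and 1260, 1003 and 1204 for Sdhd. All 4 were lowest in C57BL6-BALB/c WT, and none reached 1.5-fold in any comparison. The interval of Sdhb between the wild-type libraries, -0.21 to 0.04, included 0.

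In complex III, which oxidizes ubiquinol and reduces cytochrome c, 7 of 8 genes passed the minimum, with medians of -0.10, 0.32 and -0.44. Uqcrc1, a core protein and the most abundant per kb, had 2358, 2136 and 2201 normalized counts in C57BL6 WT, C57BL6-BALB/c WT and Cx30-/-. Uqcrq, a small subunit, stood at the upper end in both Cx30-/- comparisons. Its counts of 641.8, 456.9 and 780.5 gave a log2 ratio of 0.28 (0.13 to 0.43) to C57BL6 WT and 0.77 (0.60 to 0.95) to C57BL6-BALB/c WT. Uqcr11 had 68.1, 74.5 and 57.7, and the intervals of all its ratios included 0. Cyc1, the cytochrome c1 of the complex, which the symbol rule leaves out, had 2362, 2336 and 2212, and was not lower in C57BL6-BALB/c WT than in Cx30-/-.

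Complex IV, cytochrome c oxidase, held the widest range. Of its 19 genes, 14 passed the minimum, with medians of -0.02, 0.49 and -0.45, and 10 of the 14 were lowest in C57BL6-BALB/c WT. Cox5a, a subunit on the matrix side, had 567.6 normalized counts in the C57BL6 WT library, 452.6 in C57BL6-BALB/c WT and 574.9 in Cx30-/- (GRCm38 chr9:57521274-57532426, plus strand). The first and last of these differed by a log2 ratio of 0.02 (-0.15 to 0.18), and the Cx30-/- value exceeded that of C57BL6-BALB/c WT by 0.35 (0.16 to 0.53). Its transcript shares 32.0% of its 50-base windows with those of 3 other genes. Ndufa4, named for complex I but now placed in complex IV, had 560.6, 340.2 and 544.5, with ratios of -0.04, 0.68 and -0.72.

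Cox4i2 encodes the isoform of subunit 4 that is induced by low oxygen in several tissues and that marks pericytes among vascular cells. The gene (GRCm38 chr2:152754173-152765037, plus strand) had 275.9 normalized counts in the C57BL6 WT library, 124.2 in C57BL6-BALB/c WT and 292.7 in Cx30-/-. The C57BL6-BALB/c WT library stood apart from the other 2. The log2 ratios were 0.09 (-0.15 to 0.32) for Cx30-/- against C57BL6 WT, 1.24 (0.92 to 1.56) against C57BL6-BALB/c WT, and -1.15 (-1.47 to -0.84) between the wild-type libraries. Cox4i1, the general isoform, had 3389, 2412 and 3234. Per kb, Cox4i2 amounted to 7.58% of Cox4i1 in C57BL6 WT (6.74 to 8.51), 4.80% in C57BL6-BALB/c WT (3.94 to 5.79) and 8.43% in Cx30-/- (7.43 to 9.53). Pericyte markers moved the same way: of the 9 listed, 8 were lower in C57BL6-BALB/c WT than in C57BL6 WT, with a median of -0.68. None of the 9 was at 0 counts, and their summed normalized counts were 66397 in C57BL6 WT, 41761 in C57BL6-BALB/c WT and 71376 in Cx30-/-. Among them Ndufa4l2, the paralogue of Ndufa4 that the rule leaves out, had 955.3, 554.1 and 1160. The part of pericyte content in the Cox4i2 ratio was not tested.

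Cox7c, a small membrane subunit, was the only member past the count minimum that was lower in Cx30-/- than in C57BL6 WT by 2-fold. It had 269.8 normalized counts in the C57BL6 WT library, 128.5 in C57BL6-BALB/c WT and 101.8 in Cx30-/-, so that here C57BL6 WT was the high library. The log2 ratios were -1.41 (-1.75 to -1.07), -0.34 (-0.74 to 0.06) and -1.07 (-1.39 to -0.76). The transcript (GRCm38 chr13:86044816-86046904, minus strand, for the gene) shares 27.9% of its 50-base windows with the transcripts of 3 other genes, and the authors discarded reads that matched more than once. Without the members for which more than 20% of windows are shared, no member was 2-fold changed between Cx30-/- and C57BL6 WT. Cox7c is itself among those left out, so this follows from its own share. The part of shared windows in its ratio was not tested.

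Cox5b, a zinc-binding subunit on the matrix side, had only 84.7, 109.1 and 54.6 normalized counts in C57BL6 WT, C57BL6-BALB/c WT and Cx30-/-. Its ratio to C57BL6-BALB/c WT was -1.0 (-1.51 to -0.50), just short of the 2-fold limit, and its transcript shares 30.6% of windows with the transcript of another gene. Cox6c had 671.5, 927.8 and 638.9, highest in C57BL6-BALB/c WT, in a row that retains an intron. In its largest coding row the values were 400.8, 447.2 and 424.9, and the ratio between the wild-type libraries was 0.16 rather than 0.47.

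The remaining paired isoforms of complex IV have a form found in most tissues and a form of muscle or testis. Cox6b2, known from testis, had 144.1, 118.8 and 211.9 normalized counts, the highest ratio of Cx30-/- to C57BL6 WT among the 83 members at 0.56 (0.25 to 0.86). Per kb this was 14.2% of Cox6b1 in C57BL6 WT (12 to 16.7), 15.8% in C57BL6-BALB/c WT (12.8 to 19.4) and 19.2% in Cx30-/- (16.4 to 22.3). These intervals overlap. Cox7a1 per kb was between 7.90% and 9.34% of Cox7a2, and Cox6a2 between 1.83% and 3.12% of Cox6a1. Cox8b, the muscle form, had 45, 16 and 12 counts, and per kb was 4.49% of Cox8a in C57BL6 WT (3.26 to 6.04), 2.60% in C57BL6-BALB/c WT (1.48 to 4.25) and 1.18% in Cx30-/- (0.609 to 2.07). The C57BL6 WT and Cx30-/- intervals do not overlap, for counts that are all under the minimum. Cox8a itself had 1326, 1008 and 1618 normalized counts.

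In complex V, 14 of 16 genes passed the minimum, with medians of -0.02, 0.25 and -0.32. Atp5b, the catalytic β subunit, had 8627 normalized counts in the C57BL6 WT library, 6902 in C57BL6-BALB/c WT and 8193 in Cx30-/-. Its depth makes the ratios narrow, at -0.07 (-0.12 to -0.03) and 0.25 (0.20 to 0.30) for the Cx30-/- comparisons and -0.32 (-0.37 to -0.28) for the wild-type pair. Atp5a1, the α subunit of the same head, had 7498, 5996 and 7434, and its wild-type ratio was also -0.32. The c ring of the rotor is encoded by 3 genes with the same mature protein. Atp5g3 led with 2166, 1636 and 2163 normalized counts, while per kb Atp5g1 was 2.28% of it in C57BL6 WT (2.04 to 2.55), 1.84% in C57BL6-BALB/c WT (1.57 to 2.14) and 1.60% in Cx30-/- (1.39 to 1.84). The row of Atp5g1 has 4715 bases, of which 27.8% to 39.4% held no read, and that of Atp5g3 has 714. These shares per kb therefore depend on the row lengths, which their intervals do not cover. Atp5g1 itself had 326.6, 198.7 and 228.7 normalized counts. Its log2 ratio of -0.51 (-0.76 to -0.27) between Cx30-/- and C57BL6 WT was the lowest of the complex. Atp5g2 had 33, 31 and 39 counts. All 50-base windows of its GENCODE transcript of 441 bases occur in other genes. Its counted row has 647 bases, so that the windows do not cover all of it and its level is uncertain.

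Atp5e, the ε subunit, was the highest of the complex against C57BL6-BALB/c WT. It had 1102, 738.8 and 1207, a ratio of 0.71 (0.57 to 0.85). Atp5k, a membrane subunit, had 137.1, 128.5 and 153.2, and the intervals of all its ratios included 0. Atp5h, of the stalk, was highest in C57BL6-BALB/c WT, with 390.3, 435.3 and 343.0 in a row that is not coding. Its largest coding row had 333.6, 266.8 and 323.1, lowest in C57BL6-BALB/c WT as in 12 of the 14 genes of the complex by their most counted row. Atp5l had 29, 29 and 9 counts, and 84.8% of its windows are shared. Atp5s had 171.1, 157.7 and 128.0 normalized counts.

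The 7 assembly factors of complex I, which help to build the complex without being part of it, had medians of -0.04, -0.05 and 0.04. Their rows had from 689 to 3632 bases, beside a median of 772 over all members. Of these, 2 were lowest in C57BL6-BALB/c WT, 4 in Cx30-/- and 1 in C57BL6 WT. Ndufaf7, a methyltransferase and the most abundant of them per kb, had 1033 normalized counts in the C57BL6 WT library, 1096 in C57BL6-BALB/c WT and 1082 in Cx30-/-. Ndufaf4 had 906.4, 1077 and 884.4, higher in C57BL6-BALB/c WT than in both others. Ndufaf8 had 132.7, 99.4 and 158.4, and was the lowest of the group in the wild-type comparison with -0.42 (-0.81 to -0.03). Ndufaf1 had 242.8, 207.4 and 200.4, and Ndufaf5 227.0, 260.3 and 204.6.

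Transcript length ran along with these ratios. The median row of the members has 772 bases, and that of all genes reaching the minimum 2802. Among other protein-coding genes read from a coding row under 1000 bases, the median log2 ratio was 0.37 over 709 genes for Cx30-/- against C57BL6-BALB/c WT and -0.25 over 693 genes between the wild-type libraries. Members of that length had 0.45 and -0.41 over 36 genes. For Cx30-/- against C57BL6 WT both groups had 0.06. In other protein-coding genes with coding rows over 5000 bases the medians were -0.21 for Cx30-/- against C57BL6-BALB/c WT and 0.18 between the wild-type libraries, of the opposite sign. In each length class up to 5000 bases the members lay below the other genes in the wild-type comparison, by differences that were not tested.

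**Figure D3:**
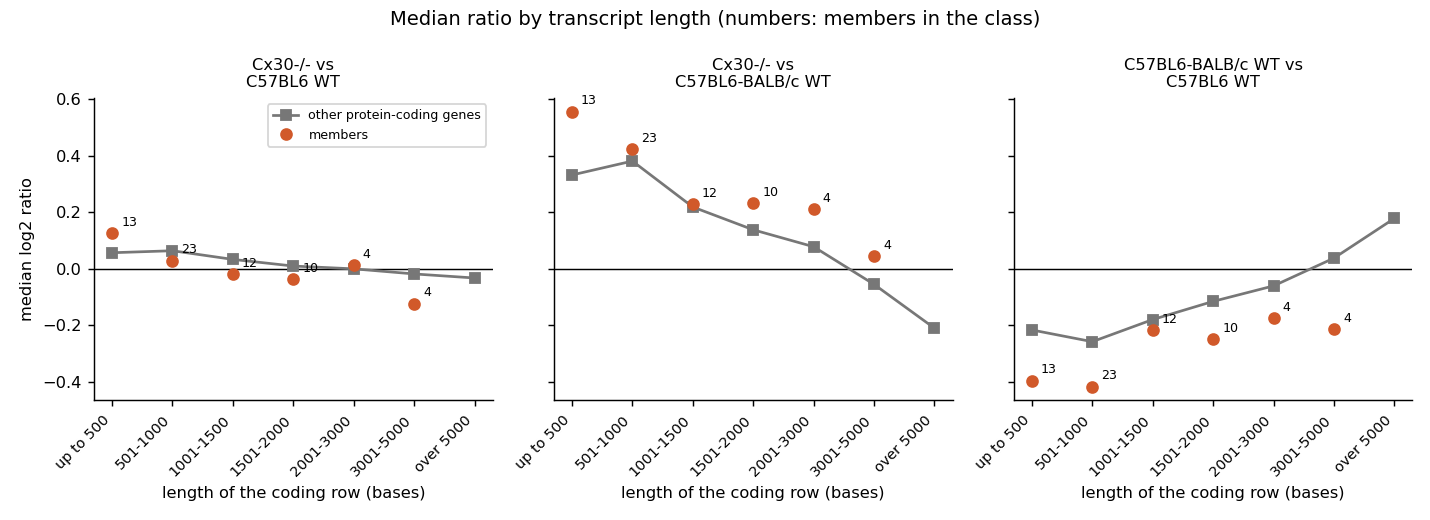
Median log2 ratio (vertical axis) by length class of the coding row, for other protein-coding genes (squares) and for members (circles, with their number), in the 3 comparisons. Between the wild-type libraries the median of the other genes goes from -0.22 up to 500 bases to 0.18 over 5000 bases, and the members lie below it in every class that holds any.

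The kind of transcript row also went with the share of members higher in C57BL6-BALB/c WT, but the medians did not follow. Of the 83 members, 66 were read from a coding row, and 7 of these were higher in C57BL6-BALB/c WT than in C57BL6 WT. Of the 17 read from a retained-intron, processed or nonsense-mediated-decay row, again 7 were higher. The median wild-type log2 ratio was -0.33 over the members with a coding row and -0.37 over the others. Over all protein-coding genes with at least 50 normalized counts in both kinds of row, the retained-intron row had the higher wild-type ratio in 70.4% of 3144 genes, with a median difference of 0.06. In the members this held for 18 of 24, with the same median difference. Where both rows had values, the coding row of 12 of 16 members read from a non-coding row had the lower wild-type ratio. The part of intron-containing RNA in these ratios was not tested.

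**Figure D4:**
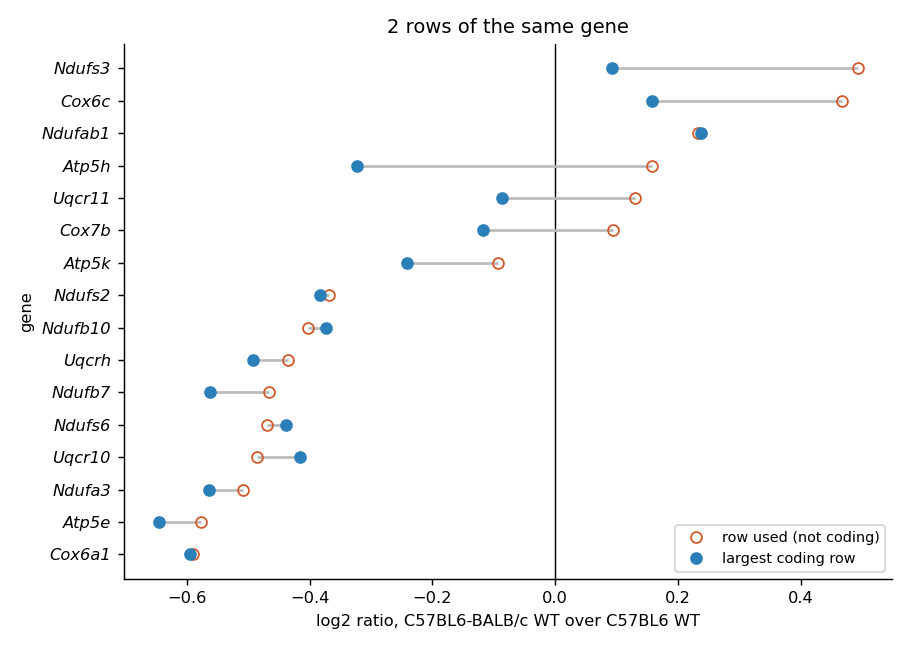
Log2 ratio of C57BL6-BALB/c WT to C57BL6 WT (horizontal axis) for 16 of the 17 members whose most counted row is not coding. Open points are the row used and filled points the largest coding row of the same gene. Ndufb4 is left out because its coding row is under the count minimum. Atp5h moves from 0.16 to -0.32, Ndufs3 from 0.49 to 0.09 and Cox6c from 0.47 to 0.16.

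Other genes of the pathway were taken from lists. The mitochondrially encoded subunits, which are built into the same complexes, parted from the nuclear ones in the comparison of Cx30-/- with C57BL6 WT. Of 13, 7 passed the minimum, and all 7 were higher in Cx30-/- than in both wild-type libraries, the medians being 0.84 relative to C57BL6 WT and 1.20 relative to C57BL6-BALB/c WT. Between the wild-type libraries all 7 were lower in C57BL6-BALB/c WT, with a median of -0.42, the same direction as that of the nuclear subunits. mt-Cytb, the cytochrome b of complex III, had 134499 normalized counts in the C57BL6 WT library, 104733 in C57BL6-BALB/c WT and 255560 in Cx30-/-. mt-Co1, the catalytic subunit of complex IV, had 42513, 25703 and 57398. The other 6, mt-Co2, mt-Co3, mt-Atp6, mt-Atp8, mt-Nd3 and mt-Nd4l, had at most 33 counts in any library. Reads with several matches had been discarded, and shared windows were not measured for the mitochondrial genes. Whether these low counts stand for low RNA levels was not tested. Summed over all 13, the mitochondrial transcripts came to 447119, 325922 and 766737 normalized counts, nearly all from the 7 that passed. The sum over nuclear complex IV was nearly equal in C57BL6 WT and Cx30-/-.

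Assembly factors of complexes II to V (30 genes) had medians of -0.07, 0.03 and -0.13, and enzymes of the citric acid cycle (12 genes) -0.04, 0.08 and -0.03. Mitochondrial ribosomal proteins had 0.01 over 74 genes, 0.21 over 74 and -0.21 over 73, in the same order. Cytosolic ribosomal proteins, 97 genes in the files, had -0.12 over 72 genes, -0.09 over 69 and -0.14 over 73. Their shared windows were not measured. Among 11 regulators that passed, the medians were 0.00, -0.14 and 0.19, with 10 of 11 higher in C57BL6-BALB/c WT than in C57BL6 WT. Ppargc1a, a coactivator of mitochondrial genes, had 552.7, 760.4 and 547.6 normalized counts, and its relative Ppargc1b 147.6, 248.4 and 147.9. These coactivators were highest in the library where most subunits were lowest. A link between these values was not tested, and the row lengths of the regulators were not compared with those of the subunits. Nrf1 had 1150, 1185 and 1092, and Gabpa 1293, 1528 and 1409.

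Markers of vascular cells also differed between the libraries. All 10 endothelial markers were lower in C57BL6-BALB/c WT than in C57BL6 WT, with a median of -0.65, and all 10 were higher in Cx30-/- than in C57BL6-BALB/c WT, with a median of 0.86. Against C57BL6 WT, where the members had a median of -0.03, all 10 were higher in Cx30-/- as well, with a median of 0.25. Their summed normalized counts were 155269 in C57BL6 WT, 98029 in C57BL6-BALB/c WT and 190869 in Cx30-/-, and none was at 0. Smooth muscle markers went the other way between the wild-type libraries, with 8 of 8 higher in C57BL6-BALB/c WT and a median of 0.53. In Cx30-/- 8 of 8 were higher than in C57BL6 WT, with a median of 0.37, and the median against C57BL6-BALB/c WT was -0.12. Neuronal markers had medians of -0.53, -0.79 and 0.20, choroid plexus markers -0.75, 0.47 and -1.23, and red cell markers 1.19, 2.04 and -0.85. Astrocyte markers had -0.24, -0.14 and 0.01, and oligodendrocyte markers -0.45, -0.44 and -0.36. Microglia and macrophage markers had -0.12, 0.10 and -0.39, and fibroblast markers 0.21, 0.40 and -0.30. In C57BL6 WT the summed normalized counts of choroid plexus markers were 147411, of which Ttr held 137637. Those of oligodendrocyte, astrocyte and neuronal markers were 53065, 45282 and 40195. The subunit counts therefore need not come from vascular cells alone. The part of cell content in the ratios of the subunits was not tested, and with 1 library per group the background, the cell content and the preparation cannot be told apart.

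**Figure D5:**
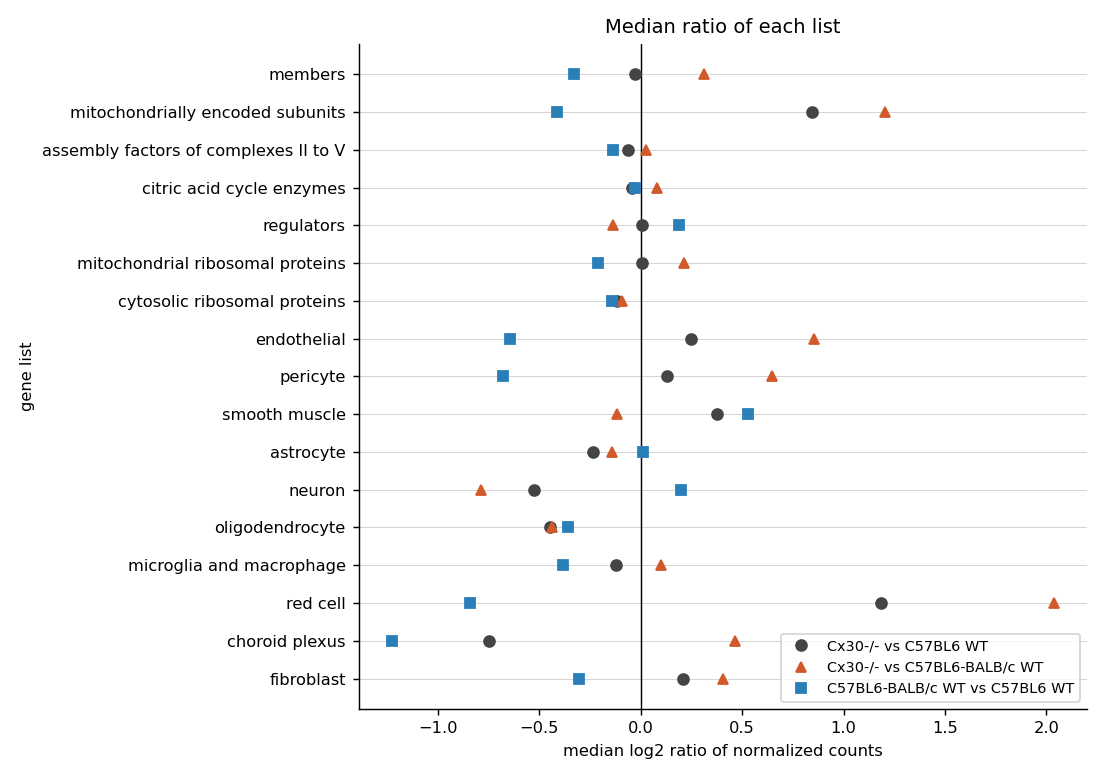
Median log2 ratio (horizontal axis) of the members and of the lists of mitochondrial, ribosomal and cell type genes, in the 3 comparisons (symbols). The members lie at -0.03, 0.31 and -0.33, and the mitochondrially encoded subunits at 0.84, 1.20 and -0.42.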

How the data were processed

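Polyadenylated RNA of isolated mouse brain vessels was measured in 3 libraries. The authors aligned reads with Bowtie, discarded those with several matches, and deposited the raw count of alignments over the exons of each of 82813 transcripts, together with that count as a fraction of a library total. The deposited columns of transcript length and of bases without a read were used as given. A read on a shared exon counts in several rows, and counts are without strand, so overlapping genes share reads. GENCODE M21 named 69375 rows (83.8%) by transcript identifier. The files reach beyond the end of chromosome 1 in GRCm38, so coordinates were taken from GENCODE. Rows without a name were not used here.

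Size factors were calculated from all 3 libraries by the median of ratios (1.15 for C57BL6 WT, 0.926 for C57BL6-BALB/c WT and 0.953 for Cx30-/-), and each count was divided by its factor. A gene entered a comparison when 1 or both of its 2 libraries held 50 normalized counts or more. No pseudocount was added. Calls are ratios of at least 2. Intervals are 95% exact conditional binomial (Clopper-Pearson) intervals from scipy 1.17.1, for counting error only. The test across genes was edgeR 4.0.16 (TMM, quasi-likelihood, Benjamini-Hochberg over all genes tested) in R 4.3.3, tested on simulated data. Shared windows are the 50-base windows of a row's transcript, in its GENCODE sequence, that are found in a GENCODE transcript of another gene. For some members that sequence and the deposited row differ in length, so that the share need not describe the counted row.

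Named genes were Cox5a, members past 2-fold, the extremes and the most abundant member of each complex, complex II, the paired isoforms and Ndufa4. Other members named (Ndufv1, Ndufv2, Ndufs1, Atp5a1, Atp5l, Cyc1 and the regulators) were chosen after their values were seen. The members and lists were chosen with earlier results of these data known. Alternatives were TMM and total-count scaling, the sum of a gene's rows, its longest or largest coding row, other minimums, a pseudocount of 1, a ratio of 1.5, DESeq2 1.42.0, other edgeR settings, and leaving out members with over 20% of windows shared.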

Additional observations from a re-analysis of the deposited data

How the results depend on the processing

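The count of members past 2-fold between Cx30-/- and C57BL6 WT, 1 as reported, was 3 without a count minimum (Atp5l, Cox7c and Cox8b), 2 at a ratio of 1.5 and 0 without members sharing over 20% of windows. Against C57BL6-BALB/c WT it was 19 at 1.5 in place of 2. It was 3 without a minimum, where Atp5l came in, and 3 with the largest coding row, where Cox5b came in. Between the wild-type libraries it was 5 without a minimum, 10 at 1.5, and 1 both with summed rows and without members sharing windows, in place of 2. The leave-out of members, which takes out Cox7c itself, and the use of the largest coding row were chosen after seeing the data. Of 195 alternative medians, 192 moved by less than the median half-width of the members' intervals. The exceptions were complex II under total-count scaling, at 0.41 against C57BL6-BALB/c WT and -0.43 between the wild-type libraries, and complex III with the longest row, at -0.24 between the wild-type libraries. Total-count scaling moved the median of all genes itself by 0.13 in the comparison of Cx30-/- with C57BL6-BALB/c WT, to 0.13, and to -0.13 between the wild-type libraries. Relative to that shift the members' medians of 0.44 and -0.45 lie where they do in the reported scaling. Of 21 medians, 17 kept their sign in every alternative run, and the 4 others were those of complexes II and IV against C57BL6 WT and those of the assembly factors in the comparisons with C57BL6-BALB/c WT. Members called were 0 in edgeR with TMM, RLE factors, no filter, summed rows or coding rows, and 0 in DESeq2, while all genes called numbered from 7 to 135. With 1 library per group no replicate could be left out. No paired analysis was possible because each group holds a single library. Depth limits the members under about 100 normalized counts, such as Uqcr11 and Ndufb4, whose intervals in the comparison of Cx30-/- with C57BL6 WT include 0.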
